A study of Mus musculus with 23 samples.

Results

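The 6 libraries described here are the 2D cultures of one pancreatic tumor cell line, out of 23 libraries in the series. Their names end in 14A to 14F, and they are taken as 2 sets of 3, 14A to 14C and 14D to 14F. The labels call all 6 replicates of one condition and give no reason for a split. The sets were seen in the data, in the share of counts from ribosomal protein genes and in a score over mesenchymal genes. The ribosomal protein share was 22.3% in 14A, 21.9% in 14B and 22.5% in 14C. It was 12.4% in 14D, 12.05% in 14E and 13.1% in 14F, so that no library lies between 13.1% and 21.9%. The mean z score of the mesenchymal list, taken for each gene over the 17 libraries of the first batch, ran from 0.66 to 0.81 in 14A to 14C and from -0.35 to -0.13 in 14D to 14F. Because the sets were drawn from these values, and every gene of the contrast was measured in the same RNA, all differences between the sets are given below as descriptions without a test.

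The cells are KC cells, tumor cells from one mouse of a Ptf1a Cre/+ model, in which Cre recombinase is made from the Ptf1a locus of the pancreatic lineage. They were grown in flasks in high-glucose medium with serum, passaged with trypsin, and lysed in the flask. The same cells also gave organoids in floating collagen gels at day 7 (n = 3) and day 13 (n = 5), and in Matrigel, a matrix from a mouse tumor, at day 13 (n = 3). These organoids and the 2D cultures carry the label of the first batch, and the organoids, unlike the 2D cells, were freed from their matrix with collagenase before lysis. A second batch held 3 more KC and 3 KPC libraries from collagen at day 13, where KPC cells come from another mouse, of a Pdx1 Cre/+ model, that also lacks Trp53. All 2D libraries come from 1 line, so that they say nothing of differences between mice, and whether they are separate cultures or repeated preparations is not stated in the labels.

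In growing cells a large share of messenger RNA encodes the ribosome itself. Ribosomal protein mRNAs are short and begin with a C and a run of pyrimidines, the 5′ terminal oligopyrimidine (TOP) tract, through which mTOR signalling sets how strongly they are translated. Epithelial-mesenchymal transition (EMT), in which keratins and cell junction genes give way to matrix and motility genes, and proliferation are the programs most often read from the RNA of pancreatic tumor cells in flasks and gels.

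The sets differed in depth and in the makeup of the counts. Each count is 1 captured RNA molecule, since the libraries carry molecular identifiers. The totals were 1221451, 1344285 and 1382736 counts in 14A to 14C and 2091391, 1973015 and 1649327 in 14D to 14F, so that every library of the first set was shallower than every other library of the series. The 20 most abundant genes took 20.2% to 21.1% of the counts in 14A to 14C and 12.2% to 12.4% in 14D to 14F. Genes with an annotated transcript under 1000 bases took 38.8% to 40.4% against 25.3% to 26.5%, and the 17 organoid libraries lay between 23.3% and 26.6%. Without ribosomal protein genes this share was still 27.7% to 29.9% in 14A to 14C against 18.4% to 19.0%. Thus 14D to 14F lay within the range of the organoids in the share of short transcripts and 14A to 14C lay above it, whereas in ribosomal protein share both sets reached above the organoids' range of 6.31% to 12.1%.

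**Figure D1:**
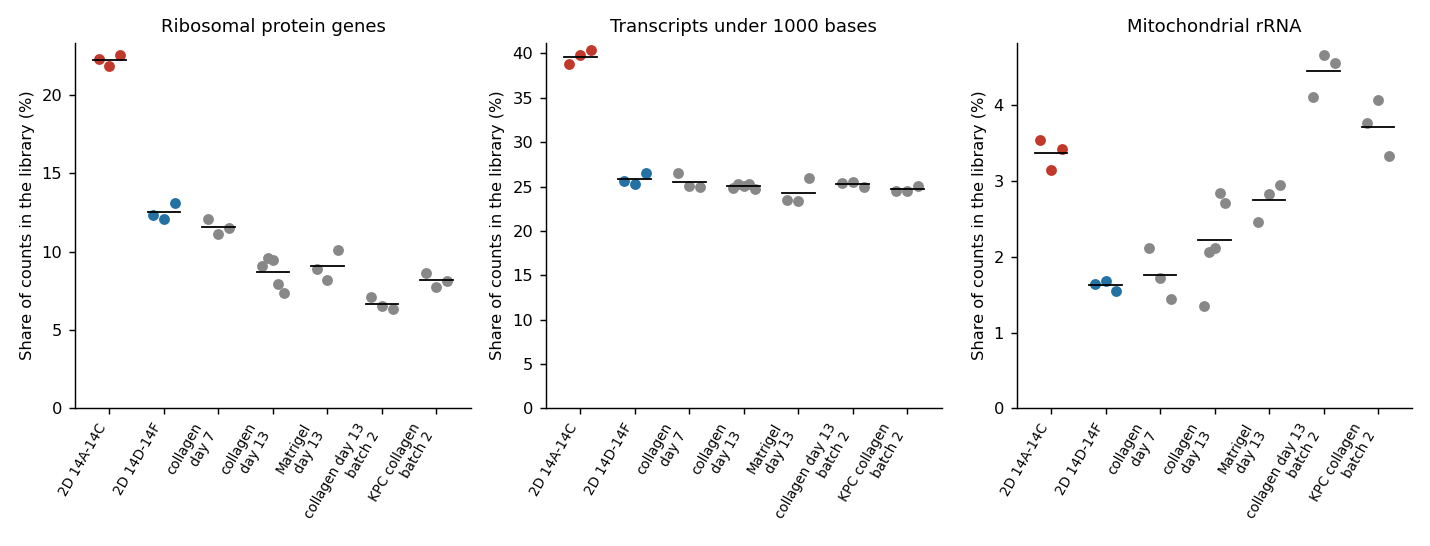
Share of each library's counts (y axis, percent, starting at 0) from ribosomal protein genes, from genes with transcripts under 1000 bases, and from the mitochondrial ribosomal RNAs, for the 2 sets of 2D libraries and the 5 organoid groups. Points are libraries and bars are group means; in the first and second panels 14A to 14C stand above every other library, and in the third panel they overlap with second-batch organoids.

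Within a set the libraries were alike. Pearson correlations of log2 CPM (counts scaled to a common library size with edgeR's TMM factors) over 11144 tested genes were 0.963 to 0.968 among 14A to 14C, 0.979 to 0.983 among 14D to 14F, and 0.917 to 0.934 between the sets. The correlations share genes of very different abundance and are a description only. The spread beyond counting noise was 25.2% of the mean over the 6 libraries, but 7.86% over 14A to 14C and 5.62% over 14D to 14F, while the organoid groups had 7.56% to 12.3%. The first principal component of the 6 libraries held 60.8% of the variance and placed 14A to 14C between -38.3 and -32.1 and 14D to 14F between 31.7 and 38.8. As a check for a library deposited more than once, the chi-square per gene between libraries was 1.27 for the closest pair, 14D and 14E, where counting noise alone gives about 1, so that all 6 were kept as separate samples.

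Of 8 genes that mark sex and the line, 1 was higher and 2 were lower in 14D to 14F by the rule of no overlap and a fold of 1.5 used below. By that rule 11.7% of all tested genes were higher and 14.7% lower. The Y-linked gene Ddx3y was counted in every library, with 16, 44 and 28 counts in 14A to 14C and 52, 52 and 49 in 14D to 14F, and Xist had 8, 6 and 11 against 8, 7 and 4 counts. The tumor suppressor gene Trp53 had 63, 51 and 48 counts against 282, 265 and 198, which is 67.7, 49.5 and 47.3 CPM against 129, 127 and 117 CPM. Cdkn2a, another tumor suppressor gene, had 13, 16 and 23 against 14, 12 and 15 counts. As a sum, ductal tumor cell markers were high in both sets. All 8 genes of a list with keratins, Cdh1, Epcam and Sox9 among them were tested. Their summed level was 7181 to 7365 CPM in 14A to 14C and 9747 to 10340 CPM in 14D to 14F. Keratins made up most of this sum, while Epcam, whose values are given below, was low in both sets. Most markers of other cells had few counts, with the exception of Cd14. This co-receptor for bacterial lipopolysaccharide, on the immune list, had 149, 204 and 198 counts in 14A to 14C and 459, 391 and 363 in 14D to 14F. It made up most of the summed immune level of 178 to 207 CPM and 199 to 222 CPM, while Cd68 had 7 to 24 counts in a library. The immune markers Ptprc, Itgam and Cd79a and the endothelial markers Kdr, Emcn and Vwf had 0 counts in all 6 libraries, which allows up to 3 counts in each, and the acinar list of 6 measured genes had 12 to 20 counts in 14A to 14C and 12 to 22 in 14D to 14F.

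Across the tested genes, 5288 had no overlap between the sets, which is 47.5% (25% higher and 22.5% lower in 14D to 14F). With a fold of at least 1.5 as well, 2942 genes (26.4%) differed, 1309 (11.7%) higher and 1633 (14.7%) lower in 14D to 14F. The split depends on the scaling. The median over all tested genes of the log2 difference, 14D to 14F minus 14A to 14C, was 0.10 with TMM scaling and 0.53 when only the library totals were used, a shift of 0.43. On the latter scale 5336 genes (47.9%) differed by the same rule, 4571 (41%) higher and 765 (6.86%) lower in 14D to 14F. After removal of the trend with transcript length, described below, 21.3% differed, 8.27% higher and 13% lower. Differences below are on the TMM scale and are to be read relative to its median of 0.10.

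The 12 genes furthest below in 14D to 14F, among those with at least 20 CPM in the higher set and no overlap, were short RNAs. They comprised 5 mitochondrial transfer RNAs (mt-Tl1, mt-Tm, mt-Tl2, mt-Tv and mt-Tq), the small nuclear RNA Rn7sk, which holds the elongation factor P-TEFb inactive, the snoRNA host Zfas1, and 5 predicted genes (Gm2830, Gm8942, Gm8292, Gm6030 and Gm5644). The predicted genes can share reads with a near-identical parent gene, so that their counts are uncertain. The libraries were primed on poly(A) tails, and how the transfer RNAs and Rn7sk came to be captured was not tested. Their CPM are shares of captured molecules and may not follow the level of the RNA. mt-Tm, the initiator of mitochondrial translation, was at 278, 332 and 396 CPM in 14A to 14C and at 25.1, 19.2 and 27.7 CPM in 14D to 14F. Rn7sk stood at 275, 408 and 252 CPM against 25.1, 25.9 and 23.6 CPM. For Zfas1 the values were 940, 1145 and 1276 CPM against 123, 126 and 137 CPM. For all 3 RNAs, each library of 14A to 14C was several-fold above each of 14D to 14F, a separation that their choice fixes. Each library of 14A to 14C was also above the organoid means of the first batch. Those means were 22.0, 32.4 and 48.9 CPM for mt-Tm at day 7, at day 13 in collagen and in Matrigel, 21.6, 57.4 and 41.9 CPM for Rn7sk, and 74.6, 96.8 and 92.2 CPM for Zfas1. The log2 differences were -3.75, -3.56 and -3.10, and they were -2.64, -2.46 and -2.49 after the trend with transcript length was removed.

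The 12 genes furthest above in 14D to 14F were 2 ion or water channel genes (Aqp8 and Slc26a9), 7 genes of DNA replication, chromatin or mitosis (Cdca2, Esco2, Cenpe, Uhrf1, Ncapd3, Hirip3 and Fam83d), the transcription factor Onecut3, the matrix protein Nepn and the small nucleolar RNA Snord118. Aqp8, a water channel of secretory epithelium, was at 59.1, 58.2 and 60.1 CPM in 14A to 14C and at 232, 257 and 249 CPM in 14D to 14F, with organoid means of 20.4 CPM at day 7 and 184 CPM at day 13 in collagen. Slc26a9, a chloride transporter, had 9.67, 13.6 and 10.8 CPM against 44.3, 54.7 and 39.4 CPM. The kinetochore motor Cenpe had 12.9, 22.3 and 15.8 CPM against 54.8, 53.3 and 52.99 CPM. The distance between the sets in these 3 genes is fixed by their choice. Log2 differences among the 12 ran from 1.48 for Ncapd3 to 2.04 for Aqp8. Snord118 lies in an annotated transcript of 135 bases and thus went against the direction of most short RNAs.

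**Figure D2:**
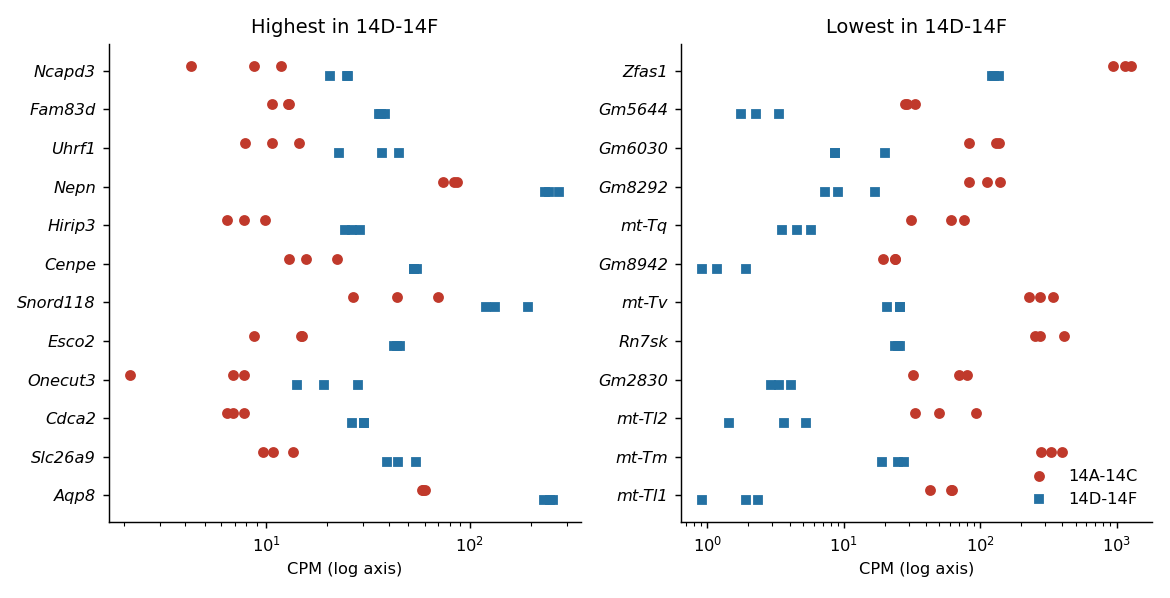
CPM in each 2D library (x axis, log scale) of the 12 genes with the largest log2 difference in each direction. Red circles are 14A to 14C and blue squares 14D to 14F; the sets do not overlap for any of the 24 genes, which the choice of genes fixes.

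Transcript length went with the difference across the whole table. Of 267 tested genes with transcripts of up to 500 bases, 182 (68.2%) were lower in 14D to 14F by the rule of no overlap and a fold of 1.5, and 5 were higher, with a median log2 difference of -1.23. The median was -0.68 for 824 genes of 500 to 1000 bases, -0.12 for 2423 genes of 1000 to 2000 bases, 0.18 for 4349 genes of 2000 to 4000 bases and 0.27 for 3139 genes over 4000 bases. Among the longest, 503 genes (16%) were higher and 134 (4.27%) lower. Leaving out the ribosomal protein list and every symbol that begins with Rpl or Rps and a digit changed the median of the shortest class to -1.14 and that of the second to -0.65. Pseudogenes of ribosomal protein genes under other symbols were not left out. Over 11002 genes Pearson's r of the difference with log2 length was 0.47, a description across genes that share their libraries. With library totals as scale, the medians of the 2 shortest classes were still negative (-0.80 and -0.23). Length moved with set, depth and library, and its part in each result below was not tested; for the gene lists the median after removal of each library's length trend, over 20 classes of length, is given beside the first.

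**Figure D3:**
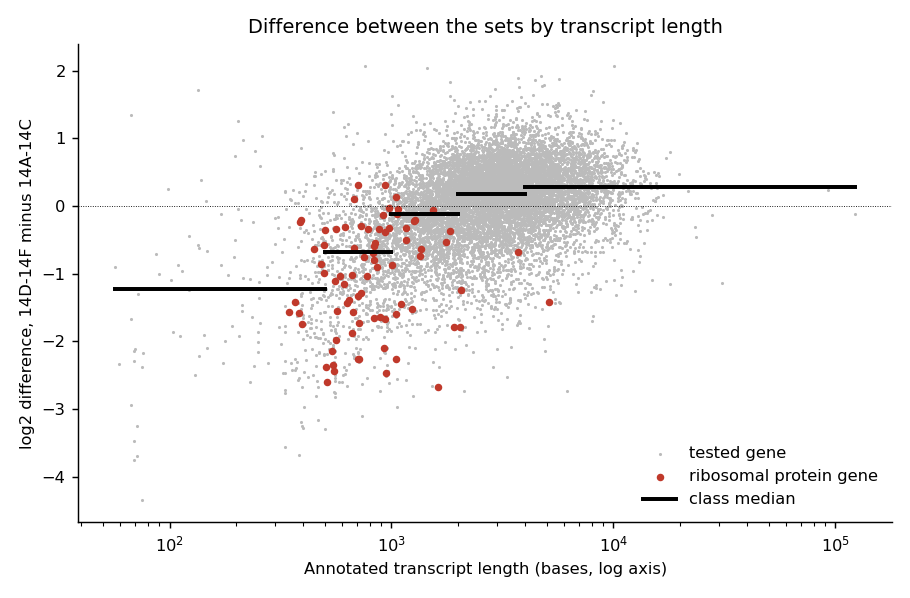
Log2 difference, 14D to 14F minus 14A to 14C (y axis), against annotated transcript length in bases (x axis, log scale) for the tested genes. Red points are ribosomal protein genes and horizontal bars the medians of 5 length classes, which rise from -1.23 to 0.27.

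Classes of RNA differed likewise, and their counts are to be read beside the 14.7% of all tested genes lower and 11.7% higher. Among 11 mitochondrial transfer RNAs, 10 were lower in 14D to 14F and none was higher, with a median log2 difference of -2.94 (-1.84 without the length trend). The large mitochondrial ribosomal RNA, mt-Rnr2, was at 32180, 28664 and 32214 CPM in 14A to 14C and at 10689, 10933 and 10531 CPM in 14D to 14F, and the small one, mt-Rnr1, had a log2 difference of -1.50. Of the 8 tested mRNAs of the mitochondrial genome, all 8 were lower in 14D to 14F, with a median of -1.41 (-0.99 without the length trend). mt-Co1, a catalytic subunit of cytochrome oxidase, showed the largest gap, with 1182, 1533 and 2011 CPM against 319, 338 and 276 CPM. Among 245 processed pseudogenes, 147 were lower and 11 higher, with a median of -1.06 that became -0.06 without the length trend. Protein-coding genes divided almost evenly, 1275 higher and 1311 lower among 10417.

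The ribosomal protein genes, part of what chose the sets, were not lowered as one. All 79 genes of the list were tested, 52 were lower by the rule and 0 higher, against 14.7% and 11.7% of all genes, and the median log2 difference was -0.99 (-0.52 by library totals, -0.31 without the length trend). Rps24, a protein of the small subunit, had 17977, 10380 and 16658 CPM in 14A to 14C and 1904, 2071 and 3049 CPM in 14D to 14F, the widest gap of the list at -2.67. At the other end Rpl29 had 467, 372 and 362 CPM against 485, 485 and 515 CPM, a log2 difference of 0.31. Rps26, Rps4x and Rpl4 had means of 4393 ± 2280, 4404 ± 529 and 2147 ± 42.4 CPM (SD, n = 3) in 14A to 14C and of 4390 ± 647, 4309 ± 372 and 2060 ± 51.9 CPM in 14D to 14F, and their sets overlapped. The median was -1.03 for its 56 genes of up to 1000 bases and -0.68 for the 23 longer ones, and over the 79 genes r with log2 length was 0.12.

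A start tract was more frequent among these genes than in the genome. In the RefSeq start windows of GRCm38.p6, a C followed by at least 5 bases that are each C or T, on the transcribed strand and beginning within 5 bases of the annotated first base, was found in 26 of 58 ribosomal protein genes with a window (44.8%) and in 11.9% of 27025 genes. The median log2 difference was -1.42 over the 26 genes with a tract and -0.94 over the 32 without one (-0.51 and -0.16 without the length trend), whereas over all tested genes it was 0.12 with and 0.11 without. Windows of 30 bases around the start are printed for Rps24, Rpl35a and Rpl34, which were among the most different, and for Rps2 and Rpl28, whose means were not lower, with the tract in capitals.
Rps24, chr14:24490663-24490692, plus strand: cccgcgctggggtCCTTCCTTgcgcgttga
Rpl35a, chr16:33056467-33056496, plus strand: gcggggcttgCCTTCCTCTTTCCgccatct
Rpl34, chr3:130730384-130730413, minus strand: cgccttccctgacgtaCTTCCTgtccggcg
Rps2, chr17:24720048-24720077, plus strand: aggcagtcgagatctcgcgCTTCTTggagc
Rpl28, chr7:4792950-4792979, plus strand: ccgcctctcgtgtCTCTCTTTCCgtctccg
All 5 were taken from the genes with a tract, so that its presence in them is fixed by that choice. Rpl35a had a mean of 4240 CPM in 14A to 14C and 658 CPM in 14D to 14F, and Rpl34 8900 against 1653 CPM, but Rps2 1963 against 2152 CPM. Rpl28 varied within the sets, at 1950, 890 and 982 against 1179, 1216 and 2261 CPM.

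Other genes of translation differed among themselves. Of 21 translation factors and other genes known for TOP mRNAs, 9 were lower and 1 higher by the rule, with a median of -0.38 that turned to 0.08 by library totals and was -0.26 without the length trend. Eef1b2, an exchange factor of elongation, was at 958, 1053 and 1317 CPM against 471, 473 and 490 CPM, while Eif4b, which aids the scanning helicase, was at 142, 136 and 124 CPM against 181, 223 and 216 CPM. The elongation factor gene Eef2 was likewise higher in 14D to 14F, at 1415, 1566 and 1522 against 2142, 2113 and 1883 CPM. All 8 snoRNA host genes were without overlap and lower, 7 of them by the rule, with a median of -1.17 (-0.71 by library totals, -0.64 without the length trend), and Snhg6 had 181, 237 and 281 CPM against 48.9, 40.8 and 45.3 CPM. Of 41 ribosome biogenesis and Myc target genes, 8 were higher and 3 lower, beside 11.7% and 14.7% of all tested genes, with a median of 0.33 (0.78 by library totals, 0.22 without the length trend). Ddx21, an RNA helicase of the nucleolus, was at 40.8, 46.6 and 35.5 CPM against 87.2, 79.7 and 72.4 CPM.

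Genes of the cell cycle were higher in 14D to 14F. Of 44 S phase genes, 22 were higher and 0 lower, and of 44 G2 and M phase genes, 28 were higher and 1 lower, against 11.7% and 14.7% of all genes. Their medians of 0.68 and 0.77 kept their sign by library totals (1.13 and 1.22) and without the length trend (0.51 and 0.67). Uhrf1, which keeps DNA methylation through replication, was at 10.7, 14.6 and 7.89 CPM in 14A to 14C and at 22.8, 37.0 and 44.7 CPM in 14D to 14F. The proliferation marker Mki67 had 22.6, 20.4 and 22.7 CPM against 42.0, 45.6 and 44.2 CPM, and Top2a, which untangles chromosomes, 44.0, 57.2 and 38.4 against 94.1, 99.4 and 85.4 CPM. Every library of 14D to 14F exceeded every one of 14A to 14C in these 3 genes. For Uhrf1 the rule of choice fixes this, and Mki67 and Top2a were chosen after their values were seen. The member that was lower by the rule was Cks2, a short subunit of the cyclin-dependent kinases, at 32.2, 34.9 and 44.4 against 27.9, 21.6 and 21.2 CPM, and its log2 difference of -0.63 turned to 0.47 without the length trend.

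Genes of cholesterol synthesis were higher in 14D to 14F throughout the list. All 24 tested genes were higher in 14D to 14F with no overlap, 15 of them by a fold of 1.5 or more, where 25% and 11.7% of all genes were so, and the median was 0.76 (1.23 by library totals, 0.59 without the length trend). Lss, which closes the sterol ring, was at 54.8, 51.4 and 41.4 CPM against 110, 131 and 110 CPM. In glycolysis and hypoxia the list split: of 31 genes 8 were higher and 2 lower with a median of 0.06 (0.53 by library totals, -0.02 without the length trend). The higher members were led by Gapdh at 316, 351 and 336 against 774, 801 and 624 CPM, and the lowest was the hypoxia-induced mitophagy gene Bnip3 at 290, 274 and 258 against 148, 151 and 157 CPM.

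The mesenchymal list, on whose score the sets were seen, was lower in 14D to 14F while the 4 keratins described below were higher. Of 63 tested mesenchymal genes 32 were lower and 2 higher, beside 14.7% and 11.7% of all genes, with a median of -0.66 (-0.19 by library totals, -0.71 without the length trend). Fstl1, a secreted glycoprotein, was at 45.1, 31.0 and 38.4 CPM against 13.7, 12.5 and 15.3 CPM, whereas Tgfb1, a ligand that drives EMT, went the other way at 38.7, 32.0 and 56.2 against 79.9, 71.5 and 71.8 CPM. Vim, the intermediate filament of mesenchymal cells, differed little at 1386, 1399 and 1489 against 1247, 1239 and 1224 CPM, and its log2 difference of -0.20 turned to 0.27 by library totals. Cdh2 (N-cadherin) had 11.8, 12.6 and 8.87 against 7.76, 8.16 and 8.83 CPM, and Zeb1, a repressor of epithelial genes, overlapped at 12.9, 10.7 and 11.8 against 15.98, 11.5 and 8.24 CPM.

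Among 37 epithelial genes 7 were higher and 3 lower, beside 11.7% and 14.7% of all genes, with a median of 0.28 (0.74 by library totals, 0.16 without the length trend). Krt7, a ductal keratin, was at 1401, 1352 and 1309 CPM against 2080, 2056 and 2008 CPM. Krt8 was at 1008, 991 and 1044 against 1599, 1666 and 1529 CPM, Krt19 at 1927, 1869 and 1889 against 2823, 2951 and 2627 CPM, and Krt18 at 2692, 2651 and 2694 against 3153, 3141 and 3127 CPM. Cdh1 (E-cadherin) was at 133, 123 and 109 against 135, 160 and 180 CPM, so that its sets nearly touched. The tight junction gene Tjp3 led the list at 22.6, 27.2 and 29.6 against 77.6, 78.3 and 61.8 CPM, and Epcam, an epithelial adhesion molecule, was lowest at 22.6, 29.1 and 23.7 against 17.4, 14.4 and 14.7 CPM. Sox9, a transcription factor of ductal cells, was at 156, 145 and 157 against 332, 321 and 234 CPM.

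Matrix genes typical of fibroblasts had like counts in both sets in spite of the difference in depth. Fn1 (fibronectin) had 464, 479 and 466 counts in 14A to 14C and 488, 389 and 376 counts in 14D to 14F, that is 498, 465 and 459 CPM against 223, 187 and 221 CPM. Sparc had 227 to 242 counts against 187 to 209, and Col1a2 70 to 97 against 65 to 77. By CPM the 3 genes did not overlap between the sets and were lower in the deeper one. Relative to Fn1, the counts of Sparc (47.4% to 52.2% and 42.8% to 55.6%) and Col1a2 (14.6% to 20.8% and 15.8% to 17.3%) stayed in the same range in both sets, and the counts of Krt7 were 281% to 291% of Fn1 in 14A to 14C and 907% to 1100% in 14D to 14F. In the 11 organoid libraries of the first batch Fn1 had 321 to 763 counts. Of the 10 fibroblast markers, 4 passed the filter on low counts and all 4 were lower by the rule, beside 14.7% of all tested genes. The summed level of the list was 149 to 209 CPM against 68.2 to 90.0 CPM, from 154 to 195 counts against 139 to 197. Thy1 was at 0 in all 6 libraries, Lum had 2 counts in 14C alone and Col1a1 had at most 7 counts in a library. In bulk RNA, fewer cells of a type and less RNA per cell cannot be told apart, and the part of these genes in the mesenchymal difference was not tested.

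Among signalling lists, 12 of 21 interferon-stimulated genes were lower and 0 higher in 14D to 14F, beside 14.7% and 11.7% of all genes, with a median of -0.67 (-0.25 by library totals, -0.47 without the length trend). Usp18, a brake on interferon receptor signalling, was at 24.7, 25.2 and 27.6 against 8.68, 12.003 and 11.8 CPM. Of 23 NF-kB targets and chemokines 7 were lower and 0 higher, with a median of -0.43 (-0.10 by library totals, -0.50 without the length trend), and Cxcl1, which attracts neutrophils, was at 25.8, 19.4 and 22.7 against 10.05, 7.68 and 5.30 CPM. Among 73 nuclear genes of the respiratory chain 35 were lower and 1 higher with a median of -0.56, which was -0.09 by library totals and 0.08 without the length trend, and there 9 were higher and 13 lower. Ndufb4, a small subunit of complex I, was at 551, 798 and 846 against 123, 104 and 125 CPM, and Sdha, the large flavoprotein of complex II, at 137, 151 and 140 against 246, 227 and 220 CPM.

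The remaining lists are to be read beside the 11.7% of all genes that were higher and the 14.7% that were lower. Of 31 proteasome subunits 9 were lower and 0 higher, led by Psma7 at 1190, 1351 and 1404 against 458, 434 and 518 CPM, and the median of -0.23 turned to 0.23 by library totals and was -0.04 without the length trend. Heat shock proteins split into 5 higher and 2 lower of 17 (median 0.12, or 0.58 by library totals and 0.09 without the length trend), with Hspa1b at 46.2, 51.4 and 48.3 against 92.2, 105 and 94.8 CPM and the short co-chaperonin Hspe1 at 1055, 1290 and 1398 against 394, 359 and 388 CPM. Of 27 genes of the NRF2 response 7 were higher and 2 lower (median 0.03, or 0.46 and 0.18 on those scales), among them Gstm1, a glutathione transferase, at 262, 272 and 260 against 642, 657 and 585 CPM, and Prdx1, a peroxidase, at 4895, 4996 and 5012 against 2770, 2603 and 2954 CPM. The list of the integrated stress response had 8 lower and 2 higher of 38, with a median of -0.23 that turned to 0.23 by library totals and was -0.34 without the length trend, and Trib3, a target of ATF4, was at 64.4, 58.2 and 50.3 against 27.9, 21.6 and 20.6 CPM. Targets of YAP and TEAD (6 lower, 1 higher of 23), immediate early genes (7 lower, 0 higher of 26), p53 targets (3 lower, 1 higher of 25), the unfolded protein response (1 lower of 20), lysosome genes (4 higher, 3 lower of 28) and actin cytoskeleton genes (2 higher, 3 lower of 31) had medians between -0.23 and 0.20. By library totals the medians of the YAP and TEAD, immediate early and p53 lists turned from -0.21, -0.23 and -0.10 to 0.25, 0.19 and 0.37, and without the length trend they were -0.45, -0.33 and -0.18. Those of the unfolded protein response, lysosome and actin lists were 0.66, 0.54 and 0.65 by library totals and 0.0012, -0.02 and 0.15 without the length trend. Tmsb4x, an actin monomer binder with a short mRNA, was at 8103, 9503 and 9952 against 3830, 3822 and 3850 CPM.

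**Figure D4:**
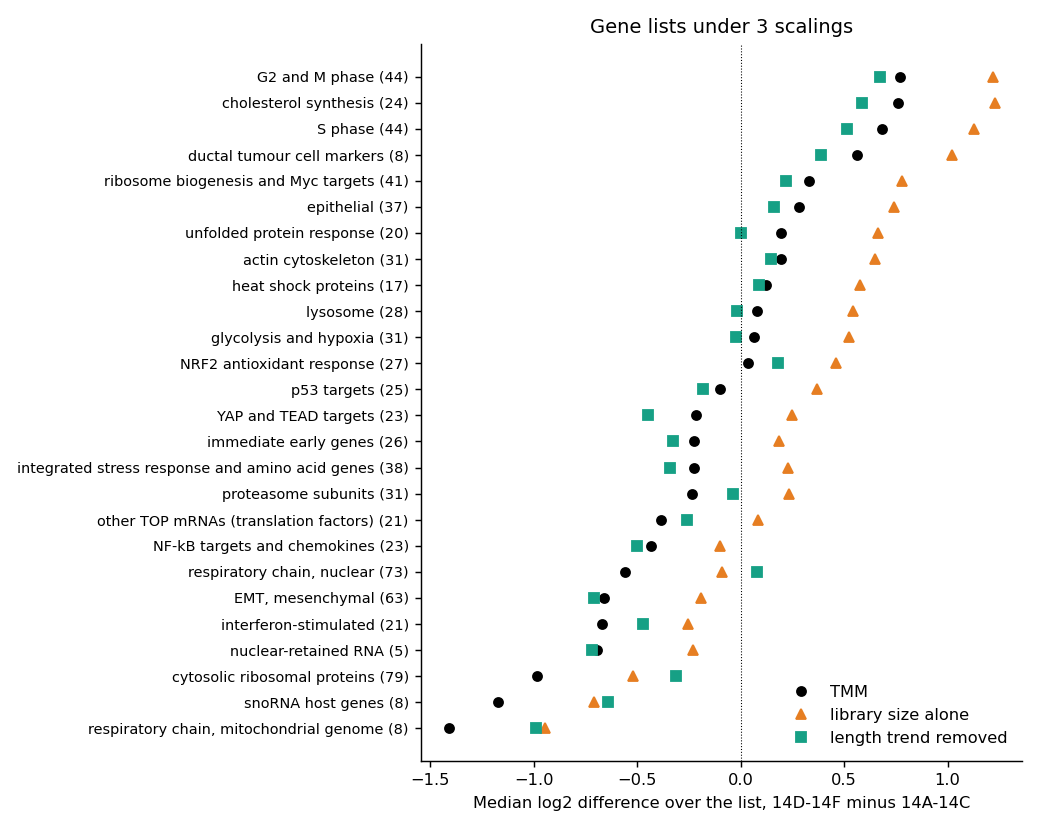
Median log2 difference, 14D to 14F minus 14A to 14C (x axis), of each gene list with at least 5 tested genes (number in brackets) under TMM scaling, library totals alone and after removal of the length trend. Cell cycle and cholesterol lists lie to the right of 0 and ribosomal protein, mitochondrial genome and mesenchymal lists to the left under all 3, while the list of nuclear respiratory chain genes crosses 0.

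The distance of each 2D library from the organoid means was larger for 14A to 14C. The root mean square log2 difference to collagen organoids of day 13 in the first batch was 0.90, 0.90 and 0.93 for 14A to 14C and 0.60, 0.59 and 0.63 for 14D to 14F. To Matrigel organoids it was 0.87 to 0.90 against 0.59 to 0.63, and to collagen organoids of day 7 it was 0.94 to 0.96 against 0.70 to 0.71. The greater counting noise of the shallower libraries enters these distances.

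What the choice of 2D libraries does to the comparison of 2D culture with organoids was examined next. With edgeR's quasi-likelihood test and an adjusted p under 0.1, all 6 libraries gave 5706 called genes of 11144 (51.2%) against day 7 collagen, 5526 (49.6%) against day 13 collagen and 4680 (42%) against day 13 Matrigel. With only 14A to 14C the counts were 6370 (57.4%), 6089 (54.9%) and 5663 (51.1%), and with only 14D to 14F 5160 (46.2%), 4371 (39.2%) and 3853 (34.5%). By library totals alone, 1692 genes (15.2%) were higher and 3613 (32.4%) lower in 2D against day 13 collagen, 47.6% in all, where TMM scaling gave 2934 (26.3%) and 2592 (23.3%). Against day 7 collagen that split was 1997 (17.9%) and 3324 (29.8%), 47.7% in all, in place of 2947 and 2759. Against Matrigel it was 1059 (9.5%) and 3481 (31.2%), 40.7% in all, in place of 2444 (21.9%) and 2236 (20.1%). These fits share the organoid libraries, so that the values of each are set side by side and not correlated.

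The sets were drawn on the ribosomal protein share and the mesenchymal score, so that the differences between the subset fits in these 2 lists restate that choice and are a description, with no support drawn from them, and differences between these fits in other lists were not tested either. For the ribosomal protein list against day 7 collagen with all 6, 43 of 79 genes were higher in 2D and 3 lower, against 26.4% and 24.8% of all tested genes, with a median log2 fold change of 0.62. With 14A to 14C these numbers were 64, 3 and 0.98 (28.3% and 29.1% of all genes), and with 14D to 14F they were 13, 20 and -0.03 (23.9% and 22.4%). Against day 13 collagen the list was higher in 2D with either set, with 76 genes higher and 0 lower for 14A to 14C (median 1.55) and 65 higher and 0 lower for 14D to 14F (median 0.56), where 26.8% and 18.9% of all genes were higher and 28.1% and 20.3% lower. The medians over all tested genes stayed between -0.09 and 0.02 in these fits.

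The mesenchymal list likewise gave other values with each set, as the choice of the sets on its score fixes. Against day 13 collagen 46 of 63 genes were higher and 4 lower with 14A to 14C (median 0.96), and with 14D to 14F 17 of 62 were higher and 3 lower (median 0.09). Of all tested genes 26.8% and 18.9% were higher and 28.1% and 20.3% lower in these fits. Against day 7 collagen the counts were 28 higher and 17 lower (median 0.48) with 14A to 14C, and 6 higher and 22 lower (median -0.24) with 14D to 14F. There 28.3% and 23.9% of all genes were higher and 29.1% and 22.4% lower. Against Matrigel they were 35 and 7 (median 0.56) and 7 and 14 (median -0.12), where 24.6% and 16.7% of all genes were higher and 26.4% and 17.9% lower. Fn1 had a log2 fold change of 0.74 ± 0.22 (SE, adjusted p = 0.00909) in 2D over day 13 collagen with all 6 libraries, 1.24 ± 0.14 with 14A to 14C and 0.02 ± 0.14 with 14D to 14F. Vim was above day 13 organoids by 0.68 ± 0.10 (adjusted p = 8.04e-06) with all 6, and the subset fits gave 0.80 ± 0.10 and 0.54 ± 0.09.

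Cell cycle lists showed the reverse order. Against day 13 collagen, 13 of 44 G2 and M phase genes were higher and 3 lower in 2D with 14A to 14C (median 0.17), and 40 were higher and 0 lower with 14D to 14F (median 0.91). S phase genes gave 14 and 0 (median 0.17) against 40 and 0 (median 0.82). Of all tested genes 26.8% were higher and 28.1% lower with 14A to 14C, and 18.9% and 20.3% with 14D to 14F. The higher counts of both lists with 14A to 14C thus lie near the share of all genes. Against Matrigel, 8 G2 and M phase genes were higher and 7 lower with 14A to 14C, and 35 and 0 with 14D to 14F. There 24.6% and 16.7% of all genes were higher and 26.4% and 17.9% lower. Against day 7 collagen, both sets were below the organoids, with 42 and 38 of 44 G2 and M phase genes lower. Of all genes 29.1% and 22.4% were lower in these fits. Cholesterol synthesis followed with 9 of 24 genes higher and 3 lower (median 0.20) against 24 of 25 higher and 0 lower (median 0.86) at day 13 in collagen. After the length trend was removed these counts were 13 higher and 4 lower against 42 and 0 for the G2 and M list, and 8 and 1 against 24 and 0 for cholesterol synthesis, where 48.1% of all genes were called with 14A to 14C (24.8% higher, 23.4% lower) and 37.9% with 14D to 14F (18.6% higher, 19.3% lower).

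**Figure D5:**
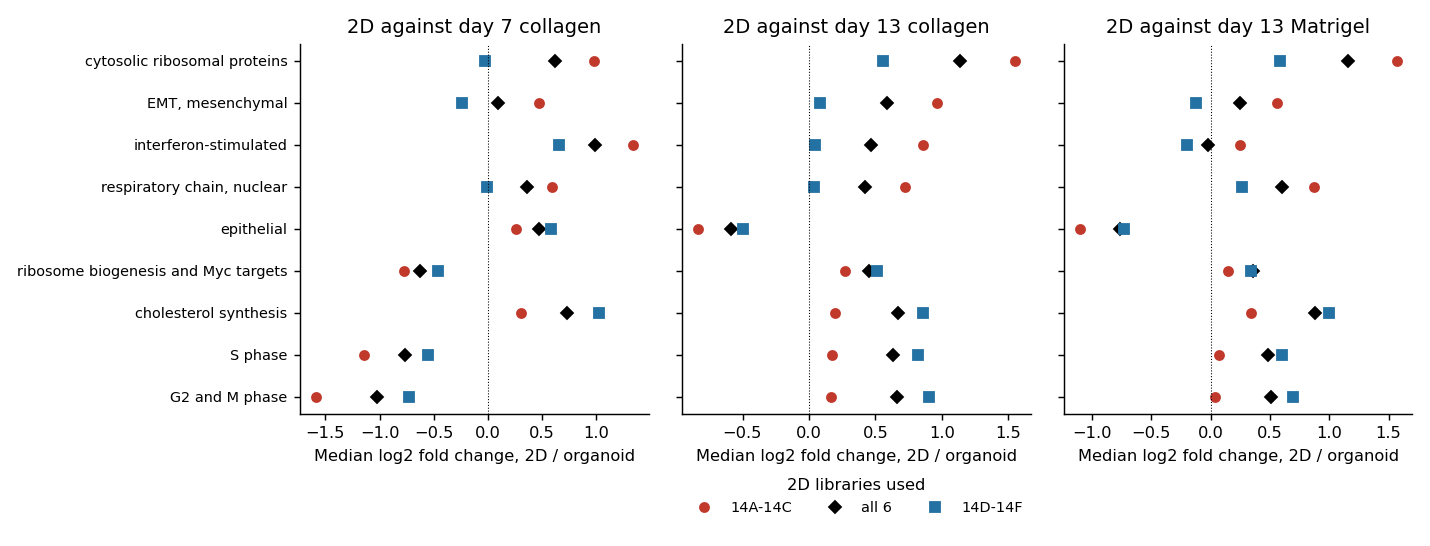
Median log2 fold change of 2D culture over organoids (x axis) for 9 gene lists in 3 comparisons, with 14A to 14C, all 6 or 14D to 14F as the 2D libraries. For day 13 collagen the mesenchymal median goes from 0.96 to 0.09 and the G2 and M phase median from 0.17 to 0.91 between the sets.

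Epithelial genes depended less on the set. Against day 13 collagen 4 of 37 were higher and 24 lower with 14A to 14C (median -0.84), and 3 and 22 with 14D to 14F (median -0.50), and against Matrigel 31 and 29 were lower. Of all genes 28.1% and 20.3% were lower against day 13 collagen, and 26.4% and 17.9% against Matrigel. Against day 7 collagen 15 were higher and 10 lower with 14A to 14C (median 0.26), and 19 and 5 with 14D to 14F (median 0.58). There 28.3% and 23.9% of all genes were higher and 29.1% and 22.4% lower. Cdh1 was below day 13 collagen organoids with either set, by -0.85 ± 0.13 (adjusted p = 7.75e-07) and -0.53 ± 0.12 (adjusted p = 5.64e-04). Krt7 was above them with either, by 0.27 ± 0.10 (adjusted p = 0.0188) and 0.82 ± 0.09 (adjusted p = 1.48e-08), but against day 7 organoids it was -0.02 ± 0.11 (adjusted p = 0.875) with 14A to 14C and 0.59 ± 0.11 (adjusted p = 3.29e-05) with 14D to 14F. Interferon-stimulated genes were above day 7 organoids with both sets (18 of 21 and 12 of 22 higher, beside 28.3% and 23.9% of all genes). At day 13 in collagen 12 of 21 were higher with 14A to 14C and 2 of 22 with 14D to 14F, where 26.8% and 18.9% of all genes were higher, so that the latter count lies below the share of all genes.

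The genes called with all 6 libraries whose fold change differed most between the 2 fits included the short RNAs named above and the mRNA of Lcn2. They were chosen for that difference, so that the distance between the 2 fits is fixed by the choice. No support is drawn from the adjusted p of these fits. Rn7sk in 2D against day 13 collagen had a log2 fold change of 1.48 ± 0.53 (adjusted p = 0.0281) with all 6 libraries, 2.46 ± 0.18 (adjusted p = 8.78e-14) with 14A to 14C and -1.23 ± 0.22 (adjusted p = 3.73e-05) with 14D to 14F. mt-Tm gave 2.40 ± 0.57 (adjusted p = 0.00147), 3.40 ± 0.14 (adjusted p = 7.30e-21) and -0.46 ± 0.18 (adjusted p = 0.0445). mt-Tv against day 7 collagen was above the organoids in all 3 fits, at 4.83, 5.80 and 2.27. Gm2830 against day 7 collagen was at 5.21 with 14A to 14C and at 1.15 ± 0.70 (adjusted p = 0.198) with 14D to 14F. Lcn2 (lipocalin 2), called below Matrigel organoids in all fits, had 0, 6 and 4 counts in 14A to 14C and 0 in 14D to 14F, so that no fold is given. Of 11007 genes in both fits, 3458, 2874 and 2474 were called in the same direction against day 7 collagen, day 13 collagen and Matrigel. Genes called in opposite directions by the 2 fits numbered 251 against day 7 collagen, 202 against day 13 collagen and 166 against Matrigel. Besides those above they included Aqp8, at -1.62 with 14A to 14C and 0.39 with 14D to 14F against day 13 collagen, Cdca2, at -1.07 and 0.91, and mt-Co1, at 0.96 and -1.43, which were picked from these lists after their values were seen.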

How the data were processed

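RNA from the 3′ ends of polyadenylated transcripts of 23 libraries was sequenced with molecular identifiers. The authors aligned the reads to GRCm38 and deposited raw counts of molecules for 27207 genes, not normalized. Libraries were assigned by their labels, and the sets 14A to 14C and 14D to 14F by the ends of their titles; the members and the gene lists were chosen with earlier results of these data known. In R 4.3.3, filterByExpr of edgeR 4.0.16 kept 11144 genes, and 1 quasi-likelihood fit of all libraries with TMM scaling compared 2D with each organoid group, at a Benjamini-Hochberg adjusted p under 0.1; subset fits left out 3 of the 2D libraries. P-values measure the spread between these libraries, which may be technical, since separate cultures are not stated for 2D. Log2 levels have a prior count of 2. A fold between sets is the difference of mean log2 CPM. Transcript lengths are medians over each gene's APPRIS principal (else basic, else all) transcripts in GENCODE M21 (GRCm38), found for 11002 tested genes; they overlook which isoform and end was captured.

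Named genes were the 12 largest differences in each direction at 20 CPM or more with no overlap, the extreme members of each list, 7 markers, and in each organoid comparison the 5 called genes whose fold change differed most between subset fits. Others (Fn1, Sparc, Zeb1, Mki67, Top2a, Eef2, single ribosomal protein genes and those said so) were chosen after their values were seen. In simulated counts 200 genes were changed. The tests against day 7 collagen, day 13 collagen and Matrigel recovered 65%, 89% and 70% of genes changed by 1 on the log2 scale. Of their calls, 6.94%, 6.47% and 12.1% were false. The simulation held no split of the libraries into sets, and far fewer genes were changed than the real tests called. These rates may therefore not hold for the fits reported above. Some items, an allele of the mouse models among them, are not reported here. A check of the replicate numbers could not decide whether they pair the libraries, and the main fit did not use them. Alternatives were DESeq2 1.42.0, other scalings, filters and thresholds, thinning, each library left out, and, added after the data were seen, removal of the length trend.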

Additional observations from a re-analysis of the deposited data

How the results depend on the processing

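The count of 2942 genes without overlap and with a fold of 1.5 became 5336 by library totals and 1147 at a fold of 2. Genes higher in 14D to 14F, 1309 in all, became 4571 by library totals, 746 with at least 10 counts in each of the 6 libraries and 270 at a fold of 2, and the 1633 lower genes became 765 by library totals and 877 at a fold of 2. With DESeq2 size factors, thinned counts, ribosomal protein and mitochondrial genes left out before scaling, or the length trend removed, the counts stayed within 1.5 times, and leaving out 1 library gave 3010 to 3401 in all. Of the named genes only Cks2 changed the sign of a called difference, to 0.47 without the length trend.

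For 2D against organoids, every alternative kept the number of called genes within 1.5 times. Leaving out 1 library gave 4584 to 5907 against day 7 collagen, 4950 to 5703 against day 13 collagen and 3611 to 4925 against Matrigel. The replicate number as a block gave 6072, 5694 and 5320. Deviations of same-numbered libraries from their group means correlated between -0.119 and 0.188. Those of the 2D libraries hold the split between the sets, so that these values do not decide whether the libraries are paired. With only 14D to 14F, and after the length trend was also removed, signs reversed for mt-Tm (-0.46 and -0.63 against day 13 collagen, -1.05 and -1.29 against Matrigel), Rn7sk (-1.23 and -1.40; -0.76 and -0.99), mt-Tq (-0.32 and -0.48; -0.63 and -0.86), mt-Tv (-0.16 and -0.33; -0.77 and -0.999) and Gm8292 against day 13 collagen (-0.62 and -0.79). They also reversed for Fn1 (-0.025 against day 7 collagen, -0.45 against Matrigel) and Sparc against day 7 collagen (-0.085 and -0.25), and with the trend removed for Sparc against day 13 collagen (-0.00823) and Matrigel (-0.0874) and for Krt7 against Matrigel (0.30). With only 14D to 14F on the TMM scale, the reversed values were called for Rn7sk, mt-Tm, and mt-Tv and Fn1 against Matrigel. Those of mt-Tq, Gm8292, mt-Tv against day 13 collagen, and Fn1 and Sparc against day 7 collagen were not called. The cause of the reversals was not tested. The shallowest 2D library had 1221451 counts, where 3 counts are 3.22 CPM.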
